A study of Mus musculus with 7 samples.

Results

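The oogenesins and the TCL1 proteins are encoded by rodent-expanded gene clusters that are active in oocytes, and 10 of their genes were examined in oocytes lacking mitofusin 1, a protein of mitochondrial fusion. The members were chosen by gene symbol, namely *Oog1*, *Oog2*, *Oog3*, *Oog4*, *Tcl1*, *Tcl1b1*, *Tcl1b2*, *Tcl1b3*, *Tcl1b4* and *Tcl1b5*, and all 10 had a row among the 22877 genes of the deposited table. The oocytes came from secondary follicles of C57BL/6J mice aged 8 weeks, and each library was made from a pool of 5 oocytes with the Smart-Seq2 protocol, which amplifies full-length cDNA. There were 4 WT and 3 *Mfn1*-/- libraries. The *Mfn1*-/- oocytes carried floxed *Mfn1* recombined by Cre under the *Zp3* promoter, which is active in growing oocytes, so that the gene remains intact in granulosa cells. Whether the WT mice carried Cre or floxed alleles, and which animal each library came from, is not given in the sources used here.

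The deposited table holds 1 mean of normalized counts per genotype and gene. The spread between libraries and the depth of each library are therefore unknown, and every difference given here compares the 2 genotype means, with no standard error and no p-value. A log2 ratio is log2 of the *Mfn1*-/- mean plus 0.1 over the WT mean plus 0.1, and a gene was counted as past 2-fold when that value was over 1 or under -1. Where a pair of means is given, the *Mfn1*-/- mean stands first and the WT mean second. The deleted gene *Mfn1* averaged 0.0577 against 0.616. The oocyte markers *Zp3*, *Gdf9* and *Nobox* were abundant in both genotypes. The 13 oocyte markers summed to 1990 against 1760 normalized counts, and 1 of them, *Sohlh1*, was past 2-fold (3.68 against 0.105). By mean, 10 of the 13 were higher and 3 lower in *Mfn1*-/- oocytes. The means of the whole table summed to 142576 against 130160, higher in *Mfn1*-/- oocytes as well. Of 12 granulosa cell markers 10 had a row, 4 with a higher and 6 with a lower mean in *Mfn1*-/- oocytes and 0 past 2-fold. However, 6 of the 10 were under 0.1 in both genotypes, where the pseudocount damps any ratio. *Hsd17b1* averaged 0.0412 against 0.152 and *Foxl2* 0.0525 against 0.0183, in opposite directions. The sum of the 10 markers was 2.27 against 1.62, but 0.398 against 0.664 without *Inha* (1.87 against 0.954), so that its direction rests on that gene. *Fshr* and *Amh* were below 0.1 in both genotypes. Of 7 theca and stroma markers 5 had a row, summing to 0.21 in each genotype. Of 7 blood, immune and endothelial markers 2 had a row, of which *Cd68* was past 2-fold (7.58 against 0.672).

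Oogenesins belong to the PRAME family of leucine-rich repeat proteins, a family that has multiplied in tandem on mouse chromosome 4 and is expressed mainly in germ cells. OOG1 has been described as a partner of RAS and of the RAL guanine nucleotide exchange factor RALGDS. TCL1 proteins are small beta-barrel proteins that bind the AKT kinases and raise their activity, and loss of *Tcl1* in mice impairs the first cleavages of the embryo. The *Tcl1b* genes are copies of one another that lie beside *Tcl1* in the mouse, where primates have a much smaller cluster.

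The 4 *Oog* genes lie at 2 places in GRCm38 (positions from GENCODE M21). *Oog4* (chromosome 4, 143437164 to 143450324), *Oog3* (chromosome 4, 144157557 to 144162663) and *Oog2* (chromosome 4, 144190719 to 144196934) share a region of 760 kb, while *Oog1* is on chromosome 12 from 87602688 to 87608850. The 130 bases before the RefSeq start of each *Oog* gene (GRCm38.p6, strand of the gene) are shown because these 4 genes had lower means in *Mfn1*-/- oocytes. Capitals mark the letters CAGCTG, a form of the E-box CANNTG that basic helix-loop-helix factors recognise.
Oog1 (chr12:87602535-87602664, plus strand): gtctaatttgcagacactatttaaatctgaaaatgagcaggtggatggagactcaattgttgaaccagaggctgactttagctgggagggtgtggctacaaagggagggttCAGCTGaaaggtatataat
Oog2 (chr4:144190587-144190716, plus strand): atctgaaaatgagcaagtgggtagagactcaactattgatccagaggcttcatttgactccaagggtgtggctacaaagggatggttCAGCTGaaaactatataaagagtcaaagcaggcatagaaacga
Oog3 (chr4:144162652-144162781, minus strand): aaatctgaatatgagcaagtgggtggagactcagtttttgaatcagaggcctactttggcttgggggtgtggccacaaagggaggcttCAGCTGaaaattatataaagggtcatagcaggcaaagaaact
Oog4 (chr4:143450325-143450454, minus strand): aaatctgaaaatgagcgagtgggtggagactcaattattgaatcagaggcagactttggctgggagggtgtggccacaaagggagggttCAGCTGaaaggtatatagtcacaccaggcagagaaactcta

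The windows of the 6 *Oog* pairs were 57.1% to 84.3% identical. CAGCTG, searched on both strands, was present in 4 of 4 *Oog* windows, beginning 43, 42, 41 and 19 bases before the start of *Oog2*, *Oog3*, *Oog4* and *Oog1*, and in 7.24% of the 32851 windows of 130 bases. The letters GGGTGTGG were in 4 of 4 *Oog* windows and in 1.97% of all windows. TATATA was in 4 of 4 and in 2.66% of all windows. Because the *Oog* genes are copies of one another with similar windows, these are not 4 independent matches. The shares over all windows are therefore no measure of chance for them. The search for these letters was also not planned in advance, so that each 4 of 4 describes the windows and is no test. The RefSeq start of *Oog1* lies closer to these letters than those of the other *Oog* genes, and upstream of its GENCODE start. CAGCTG was in 0 of the 5 *Tcl1b* windows of 130 bases, and within 250 bases in those of *Tcl1b2*, *Tcl1b4* and *Tcl1b5* and in 13.0% of all windows of that length. The general form CANNTG was in 4 of 4 *Oog* and 5 of 5 *Tcl1b* windows of 130 bases, and in 42.7% of all such windows. TAATTG, a core of sites recognised by the homeobox factor NOBOX, was within 250 bases of *Oog3* and *Oog4* and in 7.17% of all windows. Each match describes letters and not binding.

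All 4 *Oog* genes had lower means in *Mfn1*-/- than in WT oocytes. *Oog3* differed most, averaging 226 against 512 normalized counts, a log2 ratio of -1.18, so that its WT mean was 2.27 times its *Mfn1*-/- mean. It was the single member past 2-fold. Because oocytes were pooled, fewer oocytes expressing a gene and less RNA per oocyte cannot be told apart here. *Oog1* averaged 66.2 against 103 (log2 ratio -0.64). *Oog4* averaged 97.6 against 143 (log2 ratio -0.55). *Oog2* was the least different, at 56.1 against 79 and a log2 ratio of -0.49. The *Mfn1*-/- mean was 0.643 to 0.71 times the WT mean in these 3 genes and 0.441 times in *Oog3*. The summed oocyte markers given above were higher in *Mfn1*-/- oocytes, but nearly equal as a share of all summed means (1.4% against 1.35%). The summed granulosa cell markers were higher with *Inha* and lower without it. The part of these markers and of *Cd68* in the *Oog* values was not tested. In *Mfn1*-/- ovaries the study counted more secondary follicles with the fewest granulosa cell layers and few with many layers. The part of follicle stage in the *Oog* values was not tested either.

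The 4 *Oog* genes summed to 446 against 837 normalized counts, a ratio of 0.533. Without *Oog3*, which made up 61.2% of the WT sum, the ratio was 0.677. *Oog* transcripts were 0.643% of the summed means of the whole table in WT and 0.313% in *Mfn1*-/- oocytes.

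The 6 *Tcl1* family genes are clustered on chromosome 12 of GRCm38, in the order *Tcl1b2* (105146014 to 105155225), *Tcl1b1* (105159690 to 105166625), *Tcl1b5* (105176344 to 105181145), *Tcl1b3* (105191043 to 105195612), *Tcl1b4* (105201957 to 105206993) and *Tcl1* (105216750 to 105222793). *Tcl1* is on the minus strand and the *Tcl1b* genes are on the plus strand. Coding sequences of the 10 *Tcl1b* pairs were 69.5% to 83.5% identical over all aligned columns, and those of *Tcl1* and each *Tcl1b* gene 46.3% to 49.1%. The most alike gap-free block of 75 coding bases is shown, since a read of 75 bases that lies in it has to be told apart there. The study sequenced paired reads of 75 bases, so that the other read of a pair can lie outside the block. Capitals mark the 18 columns in which the 5 genes are not all the same, counted from base 1 of the start codon. A given pair can differ in fewer columns. *Tcl1b3* and *Tcl1b5* differ here only in the capital after tcca, and share 86 other stretches of 75 bases.
Tcl1b1 (coding bases 231 to 305): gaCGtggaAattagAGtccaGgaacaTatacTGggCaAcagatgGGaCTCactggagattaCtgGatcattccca
Tcl1b2 (coding bases 240 to 314): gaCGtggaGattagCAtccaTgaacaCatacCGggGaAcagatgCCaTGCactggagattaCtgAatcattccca
Tcl1b3 (coding bases 240 to 314): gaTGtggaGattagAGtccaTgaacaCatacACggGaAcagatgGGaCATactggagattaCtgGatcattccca
Tcl1b4 (coding bases 243 to 317): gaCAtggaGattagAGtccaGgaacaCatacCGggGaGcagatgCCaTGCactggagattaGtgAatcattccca
Tcl1b5 (coding bases 237 to 311): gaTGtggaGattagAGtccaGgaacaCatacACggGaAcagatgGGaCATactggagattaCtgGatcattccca

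*Tcl1*, the founding member and the one best known as an AKT coactivator, averaged 573 against 561, a log2 ratio of 0.03 that turned negative after median-centring. *Tcl1b4* (67.7 against 60.3) and *Tcl1b2* (39.8 against 35.3) each had a log2 ratio of 0.17, which median-centring brought to 0.01. The other 3 *Tcl1b* genes had lower means. *Tcl1b1* averaged 79 against 100 (log2 ratio -0.34). *Tcl1b3* averaged 43.3 against 52.4 (log2 ratio -0.28). *Tcl1b5*, the least abundant member, averaged 5.58 against 8.42 and had the largest difference of the cluster, a log2 ratio of -0.585. Along the chromosome the 3 genes with lower means lie next to each other, between *Tcl1b2* and *Tcl1b4*. Any part of position in these values was not tested.

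The 6 *Tcl1* family genes summed to 808 against 817, a ratio of 0.989. Without *Tcl1*, which made up 68.6% of the WT sum, the 5 *Tcl1b* genes summed to 235 against 256, a ratio of 0.918. The summed ratios of the *Oog* and the *Tcl1* family genes lie side by side as 0.533 and 0.989. The difference between them could not be tested with 1 mean per genotype.

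**Figure D1:**
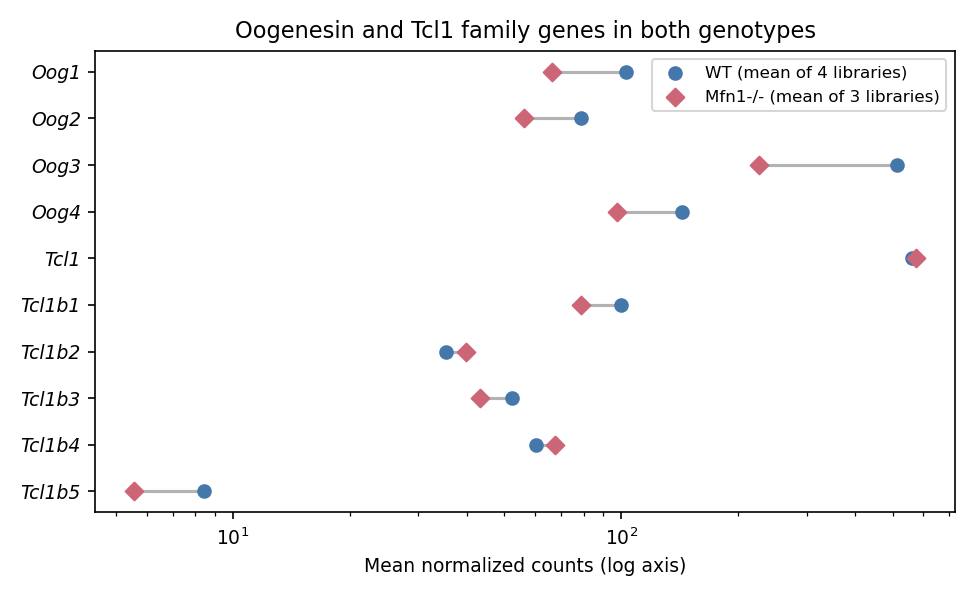
Mean normalized counts (x, log axis) of the 10 members (y) in WT (circles, mean of 4 libraries) and *Mfn1*-/- oocytes (diamonds, mean of 3 libraries), joined by a line for each gene; no error can be drawn. The diamond of each *Oog* gene lies left of its circle, *Oog3* having the longest line (226 and 512), while the symbols of *Tcl1* almost coincide (573 and 561).

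A minimum mean of 1 over the libraries left 6226 genes, all 10 members included, of which 3.24% were past 2-fold lower and 5.44% past 2-fold higher in *Mfn1*-/- oocytes. After median-centring these shares were 4.55% lower and 3.87% higher. The members gave 1 of 10 lower and 0 of 10 higher. Of the same 6226 genes, 7.71% were past 1.5-fold lower and 15.5% past 1.5-fold higher, and the members gave 3 of 10 lower, *Oog1*, *Oog3* and *Tcl1b5*, the last of which sat at the threshold, and 0 higher. A lower mean in *Mfn1*-/- oocytes was seen in 34.2% of the 6226 genes, in 4 of 4 *Oog* genes and in 3 of 6 *Tcl1* family genes. A minimum mean of 10, nearer to the level of most members, left 1849 genes, of which 2.22% were past 2-fold lower and 2.97% higher.

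The median log2 ratio of the 6226 genes was 0.16, that of the 10 members -0.42, that of the 4 *Oog* genes -0.59 and that of the 6 *Tcl1* family genes -0.12. *Oog3* had a log2 ratio below that of all but 2.22% of the 6226 genes. The corresponding shares were 6.73% for *Oog1*, 8.16% for *Oog4* and 9.44% for *Oog2*. *Tcl1b5* (7.63%), *Tcl1b1* (13.6%) and *Tcl1b3* (16.4%) followed, while *Tcl1* (36.9%), *Tcl1b4* (50.9%) and *Tcl1b2* (51.5%) lay nearer the middle. Relative to the median of 0.16 the log2 ratios of the *Oog* genes became -1.34 for *Oog3*, -0.80 for *Oog1*, -0.71 for *Oog4* and -0.65 for *Oog2*. On this scale *Tcl1* turned to -0.13, *Tcl1b2* was at 0.01 and *Tcl1b4* at 0.01, so that the direction of *Tcl1* depends on the scaling.

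**Figure D2:**
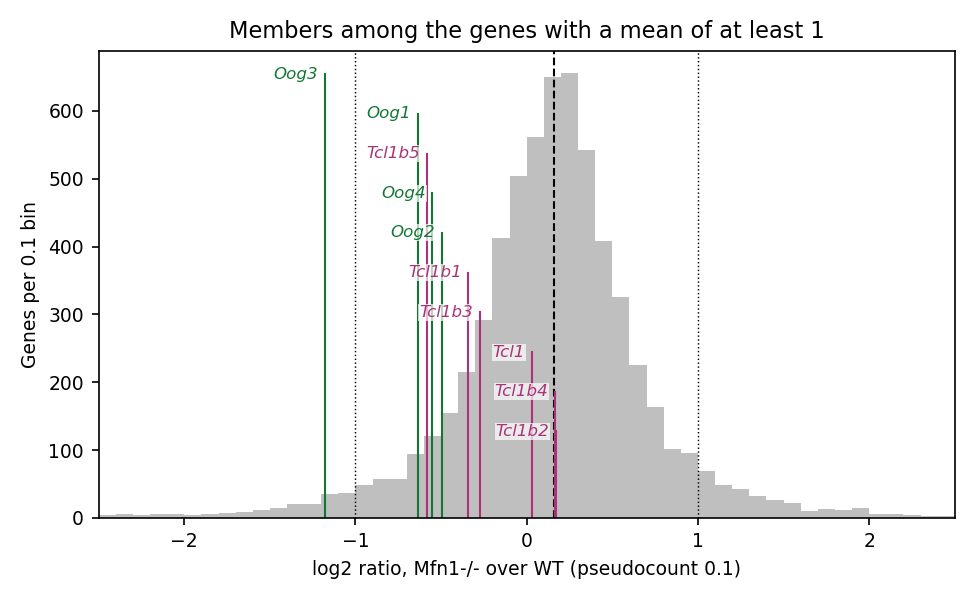
Distribution of log2 ratios, *Mfn1*-/- over WT with a pseudocount of 0.1 (x, the far tails not shown), for the 6226 genes averaging 1 or more (y, genes per bin of 0.1). Vertical lines mark the *Oog* genes (green) and *Tcl1* family genes (purple), their heights only separating the labels; the dashed line is the median of 0.16 and the dotted lines are 2-fold. *Oog3* at -1.18 lies outside the dotted line, and *Tcl1b2* and *Tcl1b4* lie at the median.

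Sums and the naming of a most or least abundant gene use the deposited means, while the order of the members' levels was taken per kilobase of transcript. The normalization of the deposited values is not named, so that these levels would be divided by length a second time if the authors had already done so. In WT oocytes *Tcl1* had 401 and *Oog3* 275 normalized counts per kilobase, followed by *Tcl1b1* (96.2), *Oog4* (72.2), *Tcl1b4* (58.5), *Oog1* (57.2), *Tcl1b3* (50.1), *Oog2* (41.2), *Tcl1b2* (35.0) and *Tcl1b5* (7.98). In *Mfn1*-/- oocytes *Tcl1* was at 410 per kilobase and *Oog3* at 121. *Tcl1b4* (65.7) then stood above *Oog4* (49.3), and *Tcl1b2* (39.4) above *Oog1* (36.8) and *Oog2* (29.3). Within the *Oog* genes the order was the same in both genotypes. Which neighbours in these orders differ beyond the spread of libraries is unknown.

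Since the members are copies of one another, the reads of a gene may also fit a relative. Every stretch of 75 bases of each member's transcript was looked up in other genes of GENCODE M21. Each stretch was looked up alone, although the reads were paired, so that the shares can overstate how many pairs fit a relative. Only transcripts that blastn aligned closely over at least 75 bases were searched. An identical stretch inside a longer alignment under the identity cutoff of blastn would be missed. For *Oog4* and *Tcl1* 0 such stretches were found in another gene. *Oog3* shared 13.6% with 1 gene, the processed pseudogene *Gm4350*, and *Oog2* 31.0%, mostly with *Gm13084*. *Oog1* shared 94.0%, of which nearly all were also in *Gm2042* (93.3% of the *Oog1* stretches) and many in *Gm10436* (44.8%), both on chromosome 12. The *Tcl1b* genes shared between 0.313% (*Tcl1b4*) and 20.0% (*Tcl1b3*) of their stretches, all with other *Tcl1b* genes. How reads that fit several genes were counted is not given in the sources used here, and how far the value of *Oog1* includes reads of *Gm2042* was not tested. GENCODE M21 places no other gene over any of the 10 members.

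**Figure D3:**
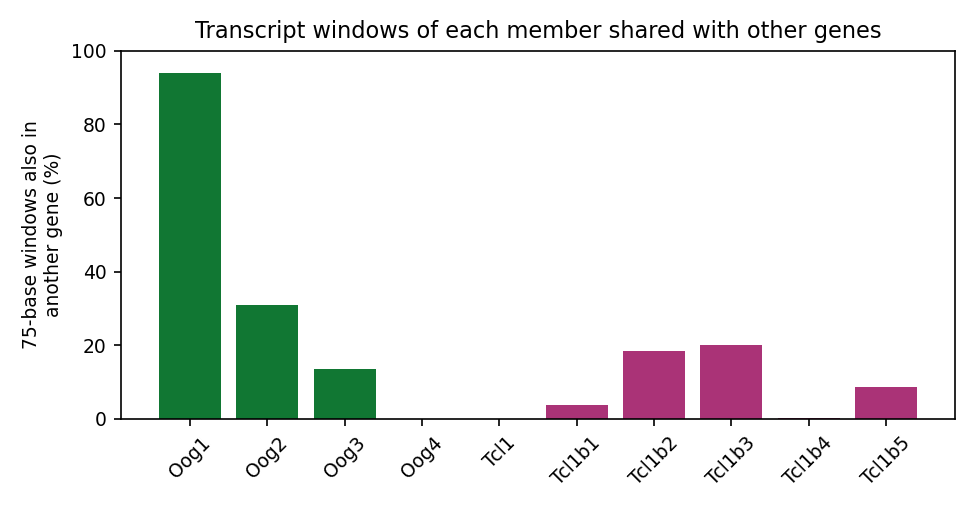
Share of 75-base stretches of each member's transcript that were found without a mismatch in a transcript of another gene (y, percent, from 0 to 100). The *Oog* genes are green and the *Tcl1* family genes purple. *Oog1* stands at 94.0% and *Oog2* at 31.0%, while *Oog4* and *Tcl1* are at 0.

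Of the genes outside the members that share such stretches with an *Oog* gene, 5 had a row, and these had lower means in *Mfn1*-/- oocytes as well. The pseudogenes *Gm4350* and *Gm7201* had no row. *Gm2042* averaged 124 against 174, and *Gm10436* 140 against 190. *Gm13023*, whose coding sequence is 96.1% identical to that of *Oog1*, averaged 100 against 210 (log2 ratio -1.07). *C87977*, 95.8% identical to *Oog1*, averaged 123 against 230 (log2 ratio -0.90). *Gm13084*, 94.9% identical to *Oog2*, averaged 248 against 283 (log2 ratio -0.19). These 5 genes, found by sequence after the values were seen, gave 5 of 5 lower means, 1 of them past 2-fold. They are no independent evidence of direction where they share reads with *Oog1* or *Oog2*. Summed with the 4 *Oog* genes they reached 1180 against 1920, a ratio of 0.614.

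*Gm13103*, the listed gene closest to *Oog3* (87.9% identity of coding sequence), differed from it in direction. It averaged 150 against 105, a log2 ratio of 0.51, while that of *Oog3* was -1.18. No stretch of 75 bases in common with *Oog3* was found in it. *Gm13088*, 82.7% identical to *Oog3*, averaged 2.04 against 4.41 (log2 ratio -1.08).

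Among 34 other genes of the PRAME family 26 had a row, 13 with a higher and 13 with a lower mean in *Mfn1*-/- oocytes and a median log2 ratio of 0.00. Their sum was 741 against 962, a ratio of 0.771. Past 2-fold were 5 higher and 2 lower genes, where the shares over all 22877 genes with no filter were 4.87% higher and 2.75% lower. Of the 14 that averaged 1 or more, 5 had a higher and 9 a lower mean, 2 were past 2-fold higher and 2 lower, and the median log2 ratio was -0.16. The 2 lower genes were *Gm13023* and *Gm13088*, both near relatives of the *Oog* genes. The 5 higher genes were *BC080695*, *Gm13040*, *Gm13119*, *Pramef25* and *Pramef17*, whose coding sequences were at most 57.4% identical to that of any *Oog* gene. *Pramef25* averaged 3.9 against 0.137, and *Gm13040* 2.11 against 0.0432. *Gm13119* averaged 1.39 against 0.0429, *BC080695* 0.798 against 0.0142, and *Pramef17* 4.33 against 1.27. *BC080695*, *Gm13040*, *Gm13119* and *Pramef25* share stretches of 75 bases with each other, so that they may not be 4 separate observations.

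**Figure D4:**
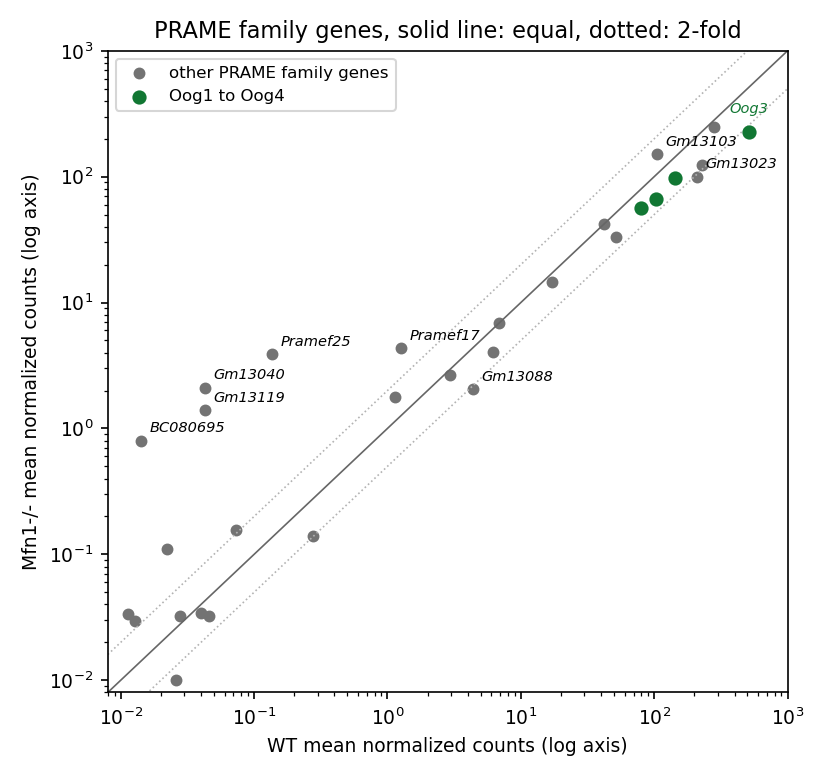
WT mean (x) against *Mfn1*-/- mean (y) of normalized counts, both log axes, for *Oog1* to *Oog4* (green) and 26 other PRAME family genes (grey); the solid line marks equal means and the dotted lines 2-fold. The *Oog* genes lie below the solid line at high levels, and *Pramef25*, *Gm13040*, *Gm13119* and *BC080695* lie far above it at low levels.

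Genes of the proteins that OOG1 and the TCL1 proteins are known to bind were also examined. Of 9 RAS and RAL genes 8 had a row and 0 were past 2-fold in either direction, with log2 ratios from -0.36 to 0.22. *Hras*, the most abundant of them, averaged 20.3 against 17.5, and *Ralgds* 0.518 against 0.43. All 13 genes of the AKT kinases and their activation had a row, at means up to 1.16, and 0 were past 2-fold. Over the libraries 0 of the 13 averaged 1 or more, and 3 were under 0.1 in both genotypes, where the pseudocount damps any ratio. The unfiltered shares over all genes were 4.87% higher and 2.75% lower. At such shares a count of 0 in lists this short does not show that the genes are unchanged. *Mlst8*, which encodes a subunit of the kinase complex that phosphorylates AKT, averaged 1.16 against 0.612. *Akt1* averaged 0.944 against 0.904, and *Akt2* 0.132 against 0.115. *Mtcp1*, the other *Tcl1* family gene of the mouse, on the X chromosome, was low in both genotypes (0.199 against 0.169).

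Chromosomal neighbours of the members were compared next. They were matched by RefSeq symbol, so that genes listed under another symbol are not counted. Within 500 kb of the *Tcl1* cluster 10 other RefSeq genes had a row, 0 of them past 2-fold. *Glrx5* averaged 50.2 against 43.4, *Dicer1* 1.98 against 2.32, and *Bdkrb1* 3.71 against 7.45 (log2 ratio -0.99). Around *Oog4*, *Oog3* and *Oog2* 18 other genes matched by symbol had a row, 3 past 2-fold higher and 1 lower. The unfiltered shares given above were 4.87% and 2.75%. Of the 5 neighbours here that averaged 1 or more, 0 were past 2-fold higher and 1 lower. The lower one was the pseudogene *Gm13041*, at 0.967 against 5.29. *BC080695*, *Gm13119*, *Pramef17* and *Pramef25*, all past 2-fold higher, also lie in this region but are not among the 18. That list is one-sided, since positions of listed relatives were compared only for those past 2-fold higher. *Gm13023* (100 against 210) and *C87977* (123 against 230) are also on chromosome 4 and not among the 18. Whether they lie within 500 kb was not examined. How many other genes of either direction were left out was not counted.

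**Figure D5:**
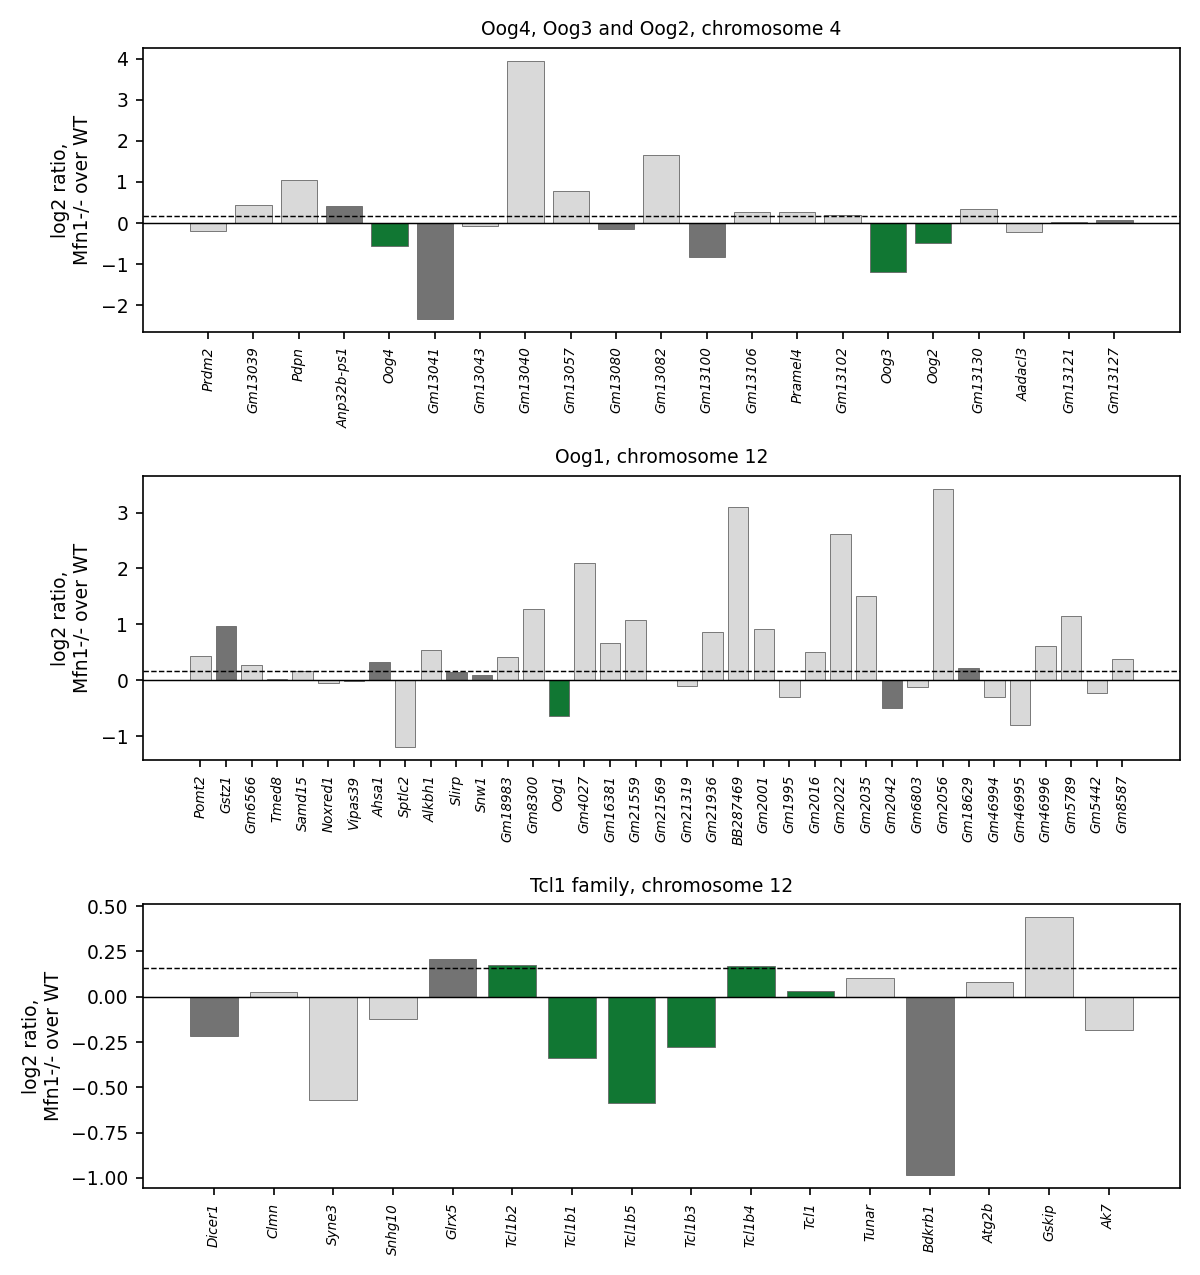
Log2 ratio, *Mfn1*-/- over WT with a pseudocount of 0.1 (y), for the 3 loci. Shown are genes within 500 kb of the members with a row under their RefSeq symbol, in chromosomal order (x). Green bars are members, dark grey bars other genes averaging 1 or more, light grey bars genes below that, and the dashed line is the median of 0.16; the y axes differ. *Oog4*, *Oog3* and *Oog2* have bars below 0 among neighbours of either direction, and the 6 *Tcl1* family genes stand in a row, 3 above and 3 below 0, with *Tcl1* above 0 but below the dashed median.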

How the data were processed

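The labels list 4 WT and 3 *Mfn1*-/- libraries, whereas the study's methods give 3 per genotype. Reads were, per the labels and the methods, trimmed with Cutadapt, filtered with the FASTX-Toolkit, aligned to GRCm38/mm10 with STAR and counted on an annotation that is not named. The authors deposited, as signal values, normalized counts averaged within each genotype beside a total, with no normalization named. Weighting the WT mean by 4 libraries and the *Mfn1*-/- mean by 3 gave that total to within 1% in 100% of genes, and these numbers were used. The lowest deposited mean was 0.01. The authors' p-values, FDR, ratios and fold changes were not used. Library depth is unknown.

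Genotypes were taken from sample titles. The planned limma test for library values could not be fitted, so no test was made. The members and gene lists were chosen with earlier results of these data known. Named were all 10 members, *Mfn1*, and listed relatives, partners, markers and neighbours past 2-fold or most abundant; other named genes (the relatives found by shared sequence, *Gm13103*, and further genes given as examples) were chosen after their values were seen. All members matched GENCODE M21 and the RefSeq promoter table (GRCm38.p6). Neighbours were taken by RefSeq symbol, so that genes listed under another symbol were left out. For each member the longest CCDS transcript was used. Candidates for shared stretches came from blastn 2.17.0 with an identity cutoff. Identity of coding sequences and of windows is over all columns of a global alignment (Biopython 1.88), and the *Tcl1b* block came from MAFFT 7.526. Python 3.11.15 was used. The counting code was tested on simulated data. Alternatives were pseudocounts of 0.01 and 1, other minimum means, a 1.5-fold threshold, median-centring and sums without the most abundant member. A minimum mean of 10 and the sum with relatives were added after seeing the data.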

Additional observations from a re-analysis of the deposited data

How the results depend on the processing

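The log2 ratios of the 10 members moved by at most 0.067 under pseudocounts of 0.01 and 1, and under both of these and after median-centring 1 member, *Oog3*, was past 2-fold lower and 0 higher. Median-centring turned the sign of 1 member, *Tcl1*. With a 1.5-fold threshold 3 members were lower, and 15.5% of all genes were higher and 7.71% lower, by construction more than at 2-fold. With a pseudocount of 1 the shares of all genes past 2-fold dropped to 2.79% higher and 1.7% lower, by construction since low genes are damped. Among genes with a mean of at least 10 the higher share was 2.97%; the cause was not tested. The other shares stayed within 1.5 times of 5.44% and 3.24%. The summed *Oog* ratio ran from 0.477 after division by the median ratio to 0.677 without *Oog3*, and that of the *Tcl1* family from 0.886 to 0.989. Leaving out single libraries was not possible, and limma was not run. No paired analysis was possible because the table holds 1 mean per genotype and no column of a single library. Without depth per library no counting error can be given, and a gene near the lowest mean of 0.01 has no bounded ratio.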

Other observations

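Around *Oog1*, on chromosome 12, 36 other genes within 500 kb had a row under their RefSeq symbol. Of these, 8 were past 2-fold higher and 1, *Sptlc2*, past 2-fold lower (0.334 in *Mfn1*-/- and 0.896 in WT oocytes). With no filter the shares over all genes were 4.87% higher and 2.75% lower. Of the 7 that averaged 1 or more, 0 were past 2-fold in either direction. In WT oocytes 8 of the 36 were listed at the lowest mean of the table, 0.01, and 5 of these were past 2-fold higher. They were *Gm2056* (1.08 in *Mfn1*-/- oocytes), *BB287469* (0.847), *Gm2022* (0.57), *Gm4027* (0.372) and *Gm8300* (0.165), named after their values were seen. With a pseudocount of 1 the log2 ratio of *Gm2056* was 1.04 and those of the other 4 were at most 0.871. Against a WT mean of 0.01 their fold differences are not bounded, and 937 genes of the table in *Mfn1*-/- and 922 in WT oocytes are listed at that lowest value.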
